A study of Homo sapiens with 2 samples.

Results

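MYC binding at the promoters of 8 genes of the lysosome and of its nutrient-sensing Ragulator complex was described from 1 ChIP-seq library. The genes were LAMTOR2, LAMTOR1, TFEB, LAMP1, MCOLN1, CTSD, CTSB and SQSTM1. A MYC peak was assigned to a gene when its summit lay within 5 kb of the GRCh37 start site given for that gene. Of the 17659 peaks in the whole list, 9 met this rule, and they belonged to 6 of the 8 genes. TFEB and MCOLN1 had no peak in the window and were kept as members. The bound members were thus chosen by the summit positions in the peak list, so the values below are a description and no test was made on them. For comparison, 4.63% of all positions on chromosomes 1 to 22 and X lay within 5 kb of a summit, and 1.05% lay within 1 kb. This is the share of positions of every kind and not of start sites, for which no GRCh37 annotation was used here.

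The ChIP library and its input library were made from TET21 cells (SH-EP/TET21/N), a human neuroblastoma line in which a MYCN transgene is shut off by doxycycline. The ChIP sample was TET21 cells expressing WT-MYC, grown in doxycycline at 1 µg/mL for 7 days, fixed in 1% formaldehyde for 10 min and precipitated with 2 µg of a rabbit polyclonal anti-MYC antibody. The input sample was labelled with the same cells, doxycycline treatment and fixation. All groups thus carry the MYCN transgene and received doxycycline, and the labels do not give the promoter that drives WT-MYC or whether the line is a clone. There was 1 library of each kind, so no value has a replicate error, and the intervals given cover counting error of the ChIP pileup only. The fold intervals hold the background fixed, so they leave out counting error of the input.

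The lysosome is the acidic organelle in which cathepsins and other hydrolases break down material delivered by endocytosis and autophagy. Ragulator is a scaffold on the lysosomal surface that holds the Rag GTPases, through which amino acids bring the growth kinase mTORC1 to the lysosome. TFEB, a transcription factor with a helix-loop-helix and a leucine zipper, is known as a master regulator of lysosomal genes, which it binds at the CLEAR element, an extended form of the E-box. MYC belongs to the same class of DNA-binding proteins and binds the canonical E-box CACGTG as a dimer with MAX, which is also the core of the CLEAR element.

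The promoters that carry the contrast in this gene group are those of LAMTOR2, the gene with the strongest peak, of LAMP1, with the most E-boxes, and of MCOLN1, with E-boxes and no peak. The promoter of CTSD is shown as one with an E-box and the second highest fold of the group, and that of LAMTOR1 as the other Ragulator gene. Each is the 250 bases before the RefSeq start on GRCh38.p14, printed 5′ to 3′ along the gene. Capitals mark CACGTG in LAMP1, MCOLN1, CTSD and LAMTOR1. In LAMTOR2, which has no CACGTG in this stretch, they mark ACTA and TCCC with any 4 bases between them. This pattern was chosen after the sequence had been seen, and it resembles the element known to be bound by the zinc finger protein ZNF143. The stretches are chr1:156054532-156054781 on the plus strand, chr13:113296989-113297238 on the plus strand, chr19:7522374-7522623 on the plus strand, chr11:1763928-1764177 on the minus strand and chr11:72103298-72103547 on the minus strand.
LAMTOR2: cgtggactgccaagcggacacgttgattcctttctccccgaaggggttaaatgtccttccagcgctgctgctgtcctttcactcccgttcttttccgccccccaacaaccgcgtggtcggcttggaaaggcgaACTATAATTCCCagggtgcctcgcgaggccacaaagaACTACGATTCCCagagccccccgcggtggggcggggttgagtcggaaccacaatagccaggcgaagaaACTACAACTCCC
LAMP1: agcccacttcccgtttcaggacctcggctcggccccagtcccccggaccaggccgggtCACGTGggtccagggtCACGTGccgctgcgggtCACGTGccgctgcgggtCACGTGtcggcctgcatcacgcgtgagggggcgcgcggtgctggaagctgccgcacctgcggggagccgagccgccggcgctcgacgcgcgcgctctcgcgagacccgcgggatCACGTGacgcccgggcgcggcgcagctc
MCOLN1: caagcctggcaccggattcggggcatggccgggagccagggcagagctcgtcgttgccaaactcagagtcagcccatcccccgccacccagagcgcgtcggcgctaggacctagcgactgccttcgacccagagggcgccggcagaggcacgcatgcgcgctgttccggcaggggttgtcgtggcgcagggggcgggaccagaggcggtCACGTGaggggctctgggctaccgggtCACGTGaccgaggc
CTSD: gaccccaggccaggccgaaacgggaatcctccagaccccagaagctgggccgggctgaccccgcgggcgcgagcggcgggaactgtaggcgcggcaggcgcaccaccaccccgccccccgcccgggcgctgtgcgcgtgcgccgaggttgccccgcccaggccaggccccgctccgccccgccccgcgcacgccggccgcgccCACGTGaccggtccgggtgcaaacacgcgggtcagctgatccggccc
LAMTOR1: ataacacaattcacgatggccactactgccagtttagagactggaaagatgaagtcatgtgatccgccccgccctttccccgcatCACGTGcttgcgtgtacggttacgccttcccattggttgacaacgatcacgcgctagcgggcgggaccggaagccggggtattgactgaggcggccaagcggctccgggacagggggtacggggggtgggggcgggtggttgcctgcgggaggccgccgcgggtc

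LAMTOR2, a Ragulator subunit, held the strongest MYC peak of the group by a wide margin. Its main peak spanned chr1:156024147-156024797, with the summit 83 bp upstream of the start site. A pileup of 89 ChIP fragments (exact Poisson 95% interval 71.5 to 110) lay over 1.69 fragments expected from the local background. The authors' fold, which adds 1 to both numbers, was 33.5, with an interval of 27.0 to 41.1 from the pileup alone. The −log10 p was 118 and the −log10 q was 112. Among all 17659 peaks it ranked 8 by p, 12 by pileup and 20 by fold, so that 0.113% of peaks had a fold at least as high.

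The peaks next to it in rank had similar fragment counts. By p, the peak just above was at chr10:103892680-103893662, with a pileup of 87 and a fold of 38.1, and the peak just below was at chr7:766045-766393, with a pileup of 79 and a fold of 39.0. Their pileup intervals, 69.7 to 107 and 62.5 to 98.5, overlapped that of LAMTOR2. The order among these sites is therefore within counting error. The LAMTOR2 peak was also wide, at 651 bp, whereas the median peak of the list was 226 bp and 6.82% of peaks exceeded 500 bp. No other peak of the 9 was wider than 500 bp.

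LAMTOR2 was also the only one of the 8 genes with more than 2 peaks in its window. A smaller peak at chr1:156023501-156023748 had its summit 880 bp upstream of the start site, with a pileup of 10 and a fold of 4.96. Another at chr1:156023065-156023311, with the summit 1344 bp upstream, rested on 15 fragments, a fold of 6.90. Gaps of 398 and 189 bp separated the peaks, which together formed a bound region of 1733 bp when peaks no more than 1 kb apart were joined. Such regions of 3 or more peaks were 3.18% of the 14488 joined regions in the list. All 3 summits lay on the upstream side, where RefSeq places UBQLN4 as the neighbouring coding gene, and the peaks were not divided between these genes. Beyond this region the nearest summits were 26861 bp downstream and 33806 bp upstream.

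**Figure D1:**
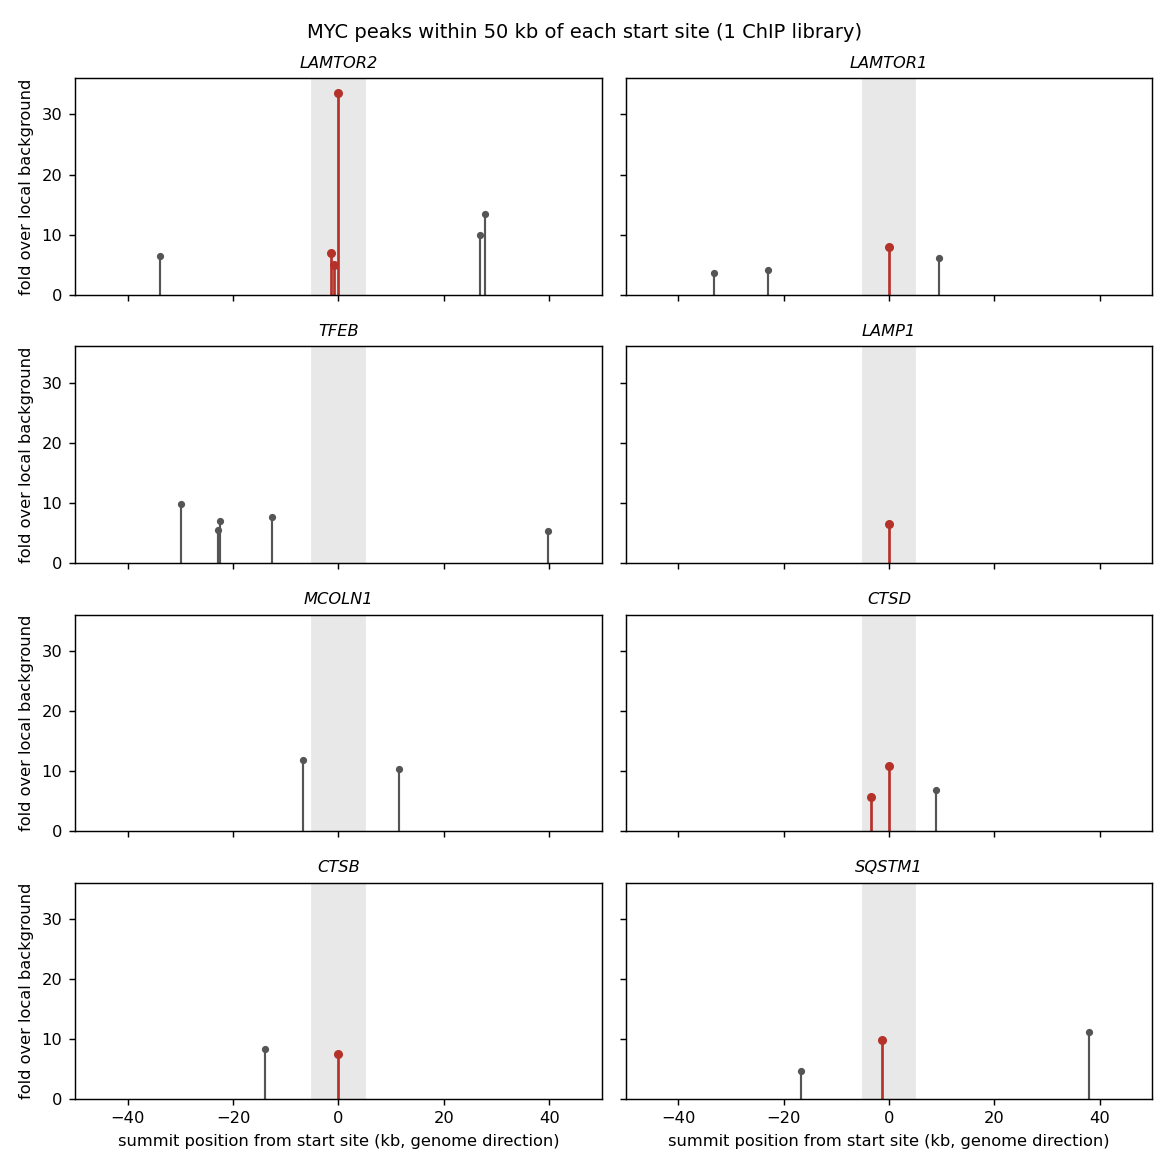
Each panel plots the fold of every MYC peak (vertical axis) against the distance of its summit from the start site in kb, in genome direction, within 50 kb. Red marks summits within 5 kb (shaded) and grey marks those farther away. LAMTOR2 reaches a fold of 33.5, LAMP1 stands alone in its panel, and the shaded windows of TFEB and MCOLN1 are empty.

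The background at the LAMTOR2 summit was above that of most peaks. Its 1.69 expected fragments compare with a median of 1.41 over the 951 peaks of chromosome 1 beyond the centromere, where it lies, and of 1.12 over the whole list. Only 16.8% of peaks had a background at least as high. If the genome-wide floor of 0.683 fragments were used in its place, the fold would be 53.5. The part of the raised background in the rank of LAMTOR2 was not tested.

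LAMTOR1, the subunit that anchors Ragulator to the lysosomal membrane, had 1 peak of ordinary strength. It lay at chr11:71814153-71814530, with the summit 33 bp into the gene. A pileup of 13 fragments (6.92 to 22.2), equal to the median of the list, stood over a background of 0.768, and the fold was 7.92 (4.48 to 13.1). A fold this high or higher was reached by 29.2% of peaks. The 2 Ragulator genes thus differed in pileup by more than their counting intervals, 71.5 to 110 at LAMTOR2 and 6.92 to 22.2 at LAMTOR1. The next summit was 9443 bp upstream of LAMTOR1, outside the window, with a fold of 6.06.

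No peak was called within 5 kb of the start site used for TFEB, the transcription factor of the group. The nearest summit was 12556 bp downstream of its start site, at chr6:41691315-41691538, with a pileup of 15 and a fold of 7.53. Beyond it on the same side were summits at 22559, 22933 and 29894 bp, with folds of 6.90, 5.37 and 9.72. On the upstream side the nearest summit was 39835 bp away, with a fold of 5.35. All 4 peaks nearest to the start site therefore lay in the direction of transcription. RefSeq lists 3 promoter windows for TFEB on another build, and these peaks were not placed against them. At this depth a site had to reach a pileup of 5 and a fold of 3.56 to be called at the lowest background of the list, so weaker binding at the TFEB start site was not detectable.

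The 2 genes of the lysosomal membrane differed in whether a peak was called. LAMP1, an abundant membrane glycoprotein of the lysosome, had a peak at chr13:113951330-113951742 with its summit 14 bp upstream of the start site. The pileup was 18 fragments (10.7 to 28.4) over a background of 1.98, and the fold of 6.38 (3.92 to 9.88) was just below the list's median of 6.40. This was the highest background among the 9 peaks, and 13.5% of all peaks had one at least as high. At this background the weakest calls in the list rested on 9 fragments, a fold of 3.36. LAMP1 was also isolated, since its next summits were 87096 bp upstream and 113858 bp downstream.

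MCOLN1, which encodes the lysosomal cation channel TRPML1, had no peak in the window but lay between peaks on both sides. The summit at chr19:7580738-7580973 was 6652 bp upstream, the closest of any summit outside a window in this group. It rested on 19 fragments (11.4 to 29.7) against 0.693 expected and had a fold of 11.8, a value reached by 9.56% of peaks. On the downstream side, a summit at 11492 bp rested on 18 fragments and had a fold of 10.3. Both were stronger by fold than the peak at the LAMP1 start site, although their counting intervals overlapped with it. Their pileups of 19 and 18 were close to the 18 fragments at LAMP1. Their backgrounds, 0.693 and 0.843, were lower than the 1.98 at LAMP1. RefSeq lists ZNF358 and PNPLA6 as the coding neighbours of MCOLN1, and these peaks were not assigned to either. At the other edge of the 5 kb rule, the farthest summit inside a window was that of CTSD at 3362 bp.

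The cathepsin genes both had a peak over the start site. At CTSD, the main aspartic protease of the lysosome, the peak at chr11:1785053-1785290 had its summit 48 bp into the gene, with 18 fragments (10.7 to 28.4) against 0.750 expected and a fold of 10.9 (6.67 to 16.8). A fold this high was reached by 11.9% of peaks. A weaker peak at chr11:1781759-1781943, 3362 bp into the gene, rested on 10 fragments, a fold of 5.68. Outside the window, a summit 8842 bp upstream had a fold of 6.71. At CTSB, a cysteine protease, the summit of the peak at chr8:11725567-11725713 lay 1 bp from the start site. Its pileup was 12 (6.20 to 21.0) over 0.740, its fold was 7.47 (4.14 to 12.6), and its width of 147 bp was the smallest among the 9 peaks. The folds and pileups of the 2 cathepsin genes overlapped in their counting intervals.

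SQSTM1, which encodes the autophagy receptor p62, was the 1 gene whose best peak was not at the start site used. The summit at chr5:179246434-179246682 lay 1277 bp upstream, with 18 fragments (10.7 to 28.4) against 0.937 expected and a fold of 9.81 (6.02 to 15.2). RefSeq lists 3 promoter windows for this gene, and the peak was not assigned to any of them, since the windows are on another build. The next summits were 16770 bp upstream, with a fold of 4.67, and 38009 bp downstream, with a fold of 11.1.

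The best peaks of the 6 bound genes were led by LAMTOR2, at a fold of 33.5. The others followed in the order CTSD (10.9), SQSTM1 (9.81), LAMTOR1 (7.92), CTSB (7.47) and LAMP1 (6.38). Neighbours in this order below LAMTOR2 did not differ beyond their counting intervals. The median fold of the 6 best peaks was 8.86, beside 6.40 over the whole list, and 5 of the 6 were above the list's median. The list holds peaks at any distance from a start site, and a median for peaks near start sites was not computed. LAMTOR2 and CTSD, 2 of 6, had a fold of at least 10, as did 15.4% of all peaks. LAMTOR2 alone had a fold of at least 20, as did 1.43% of all peaks. The −log10 q was at least 10 for LAMTOR2, CTSD and SQSTM1, 3 of 6, and for 30.5% of all peaks. With all 9 peaks counted, the median fold was 7.47 and 6 exceeded the list's median. Taking the best of several peaks for a gene raises its fold, and this applies to LAMTOR2 and CTSD.

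**Figure D2:**
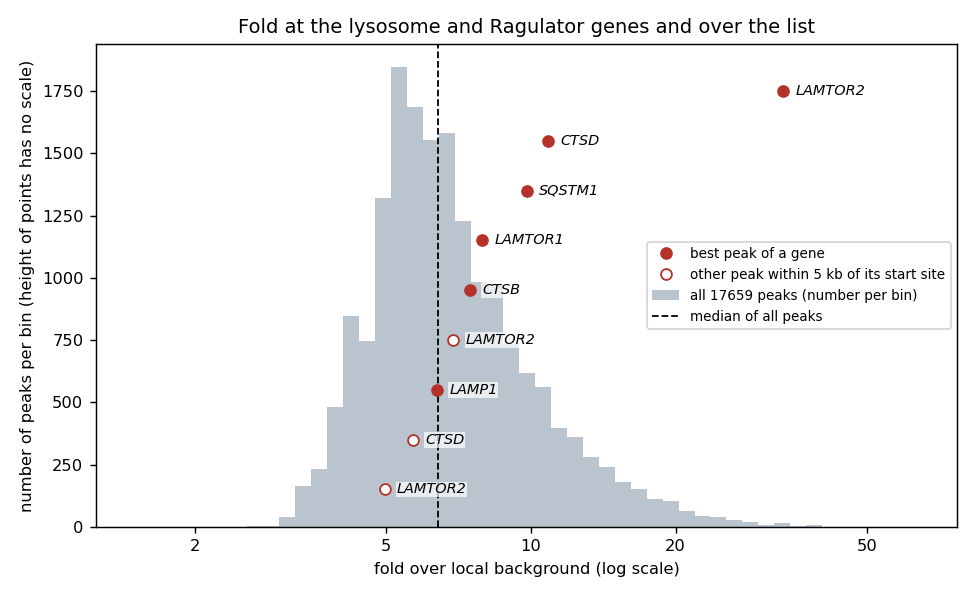
The 9 peaks of the group (red) are set over a histogram of the fold of all 17659 peaks (grey, number of peaks per bin, log horizontal axis); filled circles are the best peak of a gene and open circles the others. The dashed line is the list's median of 6.40; LAMTOR2 lies in the far tail at 33.5 and LAMP1 at the median.

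The order of the genes depended on whether the fragments or the fold were read. LAMP1, CTSD and SQSTM1 had the same pileup of 18 fragments. With backgrounds of 1.98, 0.750 and 0.937 fragments, the same pileup gave folds of 6.38, 10.9 and 9.81. LAMTOR1 and CTSB had pileups of 13 and 12. The pileup of LAMTOR2, at 89, was the only one with an interval above those of the other 5 genes. LAMTOR2 alone in the group had a pileup of at least 40, as did 2.22% of all peaks.

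**Figure D3:**
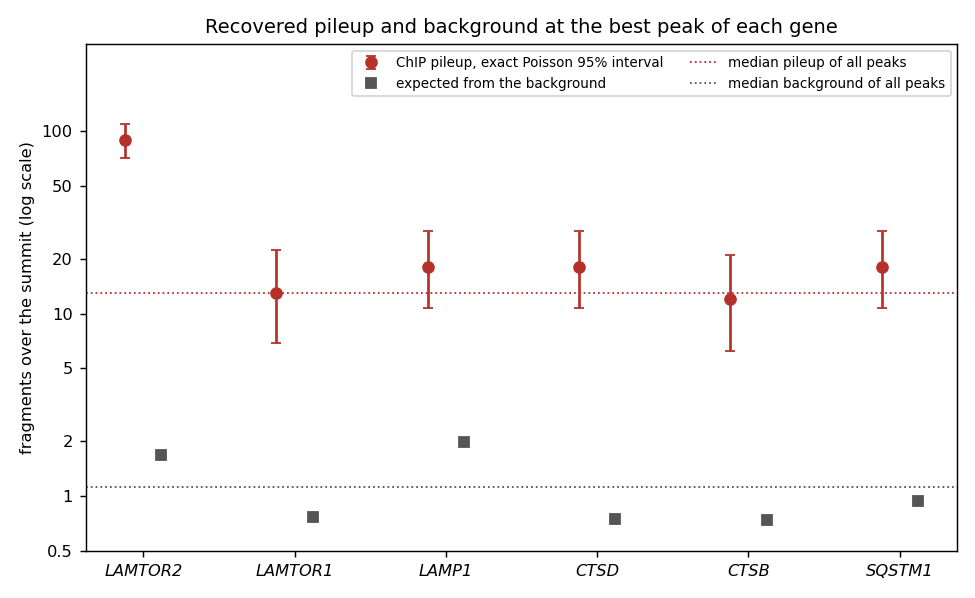
For the best peak of each of the 6 bound genes, red circles give the ChIP fragments over the summit with the exact Poisson 95% interval and grey squares the fragments expected from the background, on a log axis. Dotted lines are the medians of all peaks, 13 fragments of pileup and 1.12 of background; LAMTOR2 has 89 fragments, and LAMP1, CTSD and SQSTM1 have 18 each over unequal backgrounds.

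Distance to the start site was the value by which the peaks had been chosen, so it is given as a description only. Of the 6 best peaks, 5 had the summit within 100 bp of the start site, at distances of 1 bp (CTSB), 14 bp (LAMP1), 33 bp (LAMTOR1), 48 bp (CTSD) and 83 bp (LAMTOR2). The share of all start sites with a summit this near was not computed here. The other peaks in the windows were at 880, 1277, 1344 and 3362 bp. No summit lay more than 48 bp downstream of a start site except that of CTSD at 3362 bp, among the 5 bound genes whose strand the promoter table gives.

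The genes with the most E-boxes in their promoter windows, LAMP1 and MCOLN1, did not have the highest folds. By pileup, LAMP1 was level with CTSD and SQSTM1 at 18 fragments, below LAMTOR2 at 89. RefSeq promoter windows, 250 bases before to 50 after a start, were at hand for 7 of the 8 genes, and 4 of these held CACGTG: LAMP1, MCOLN1, CTSD and LAMTOR1. Among all 15843 coding genes with a window, 10.9% held CACGTG. The motif reads the same on both strands, and the extended form TCACGTGA contains it, as does the longer CLEAR palindrome, which adds GT before and AC after, so the counts below overlap. Of the 4 genes with an E-box, 3 had a peak within 5 kb and MCOLN1 had none. Of the 3 without, LAMTOR2 and SQSTM1 had a peak and TFEB had none. A peak within 5 kb could lie outside the stretch searched for E-boxes. The SQSTM1 summit, for example, was 1277 bp upstream of the start site used.

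LAMP1 had 6 copies of CACGTG in its window, beginning at −192, −176, −159, −142, −28 and −1 from the RefSeq start, of which the first 5 are in capitals in the sequence above. It was the 1 coding gene of the table with 5 or more copies (0.00631%). The copies at −28 and −1 lay in TCACGTGA, a motif found in 1.65% of coding genes. The peak at this promoter was at the median of the list by fold, over a high background, and above it by pileup, since 25.0% of peaks had a pileup of 18 or more and 37.2% had a −log10 p at least as high. With the genome-wide floor as background its fold would be 11.3, equal to those of CTSD and SQSTM1 computed in the same way. MCOLN1 had copies at −41 and −14, both in TCACGTGA, and that at −14 lay in the full CLEAR palindrome, which 0.638% of coding genes hold. Having 2 or more copies of CACGTG was found in 1.1% of coding genes. CTSD had 1 copy at −47, and LAMTOR1 had 1 at −165.

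LAMTOR2 had the opposite pattern, with the strongest peak and no CACGTG in its window. It had 1 copy of CACGCG, a non-canonical E-box that MYC is known to tolerate, at −141, counted on both strands, as did 18.1% of coding genes. With CACGCG allowed as well, 6 of the 7 genes had a match, beside 26.3% of coding genes. TFEB matched in only 1 of its 3 windows. GC content was 61.3% in the LAMTOR2 window and 63 to 78.7% in the other member windows, beside a median of 62.3% over coding windows. The part of GC content in these shares was not tested. The LAMTOR2 window held 3 copies of the ACTA and TCCC pattern, searched on both strands, beginning at −117, −80 and −12. At least 1 copy was found in 4.33% of coding genes, and 3 or more in 0.0316%, which is 5 genes. Since the pattern was chosen after this sequence had been seen, its rarity is a description only. TFEB, without a peak within 5 kb of the start site used, had 2 copies in 1 of its 3 windows, at −124 and −85. Neither CACGTG nor CACGCG nor the ACTA and TCCC pattern was found in the 3 windows of SQSTM1. These matches describe the letters in the windows and not sites of binding, and they were not placed against the summits, which are on GRCh37.

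**Figure D4:**
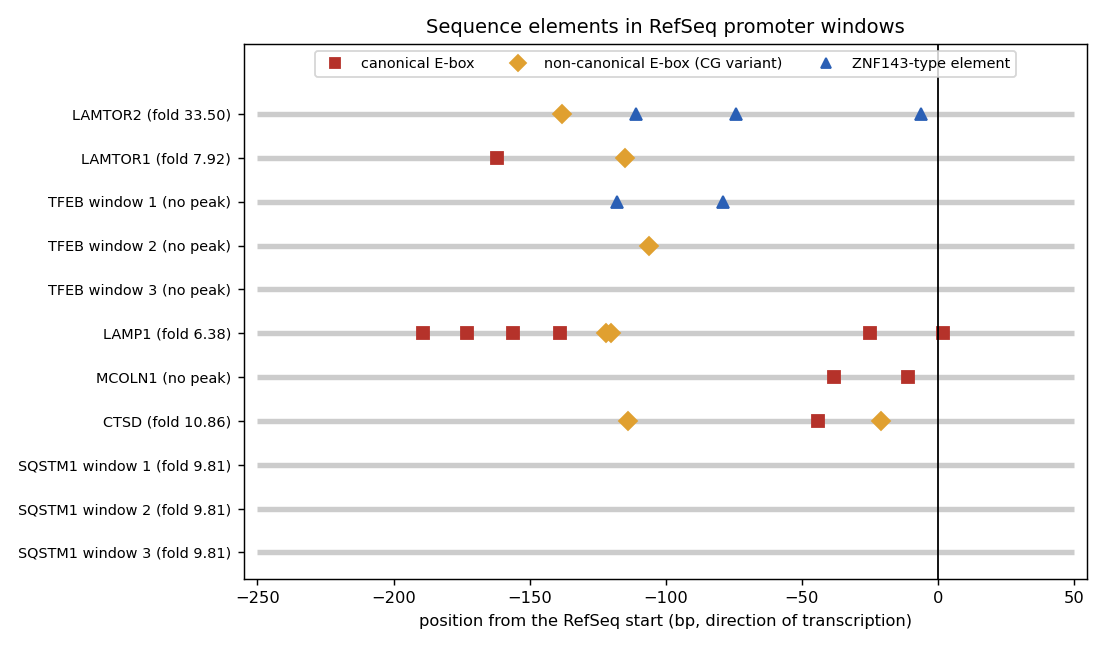
Each grey line is a RefSeq promoter window, from 250 bp before to 50 bp after the start (vertical line), with matches to the canonical E-box (red squares), its CG variant (yellow diamonds) and the ZNF143-type pattern (blue triangles); the label gives the best fold within 5 kb. LAMP1 has 6 canonical E-boxes at a fold of 6.38, MCOLN1 has 2 and no peak, and LAMTOR2 has none at a fold of 33.5. The LAMTOR2 peak is wider than the window, so part of it was not searched.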

How the data were processed

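The file used was the authors' deposited list of 17659 MYC peaks in narrowPeak layout. Per the submitters' processing notes, which give no roles, the tools included MACS2 2.1.0 and STAR 2.5.2a, and the build was GRCh37. In every peak the deposited score is the −log10 q times 10 without its decimals. The authors' deposited fold (a ratio), −log10 p and −log10 q are the peak caller's own values. How the authors filtered the list is not given in the sources used here.

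Distances are column 2 plus column 10 minus the start site, so they differ by 1 bp from 1-based positions. Pileup and background were recovered from fold and −log10 p by trying whole pileups from 3 to 699 under MACS2's definitions. A whole pileup matched within 0.001 in every peak, and the step was also tested on simulated data. The total depth per library is unknown. Sequenced fragments are not independent molecules. Motifs were searched in RefSeq promoter windows (GRCh38.p14), which were not combined with peak positions. Python 3.11.15, SciPy 1.17.1 and pandas 2.3.3 were used.

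The members and gene lists were chosen with earlier results of these data known. All 8 members, each with its peaks and nearest outside peaks, were named, with RefSeq neighbours by name and, from each list, genes with the longer CLEAR motif. The alternatives changed the window, the q threshold, the form of the fold, the choice of best peak and the motif search.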

Additional observations from a re-analysis of the deposited data

How the results depend on the processing

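For 29 of 38 alternatives, a fold stayed inside its counting interval, or a count changed by a factor of no more than 1.5. The values varied were counts and folds, which have no direction, so a reversal could not have been seen. Some of the 29 could not have come out otherwise. LAMTOR1, LAMP1, CTSB and SQSTM1 had 1 peak each in the window, so choosing the best peak by −log10 p or by pileup could not alter their folds. At a −log10 q of 10 or more, 3 genes kept a peak (LAMTOR2, CTSD and SQSTM1), with 3 peaks in all, in place of 6 genes and 9 peaks. A stricter threshold removes peaks by construction. With windows of 1, 2 and 10 kb, 5, 6 and 7 genes had a peak. MCOLN1 was the gene gained at 10 kb, and SQSTM1 the gene lost at 1 kb. Dividing the pileup by the background with nothing added gave folds of 52.8 at LAMTOR2, 16.9 at LAMTOR1, 24.0 at CTSD, 16.2 at CTSB and 19.2 at SQSTM1, since removing the added 1 raises every fold. With the genome-wide floor as background, the fold was 53.5 at LAMTOR2 and 11.3 at LAMP1. Under the floor, LAMP1, CTSD and SQSTM1 had equal folds, as their pileups were equal. The depth limits what can be seen at TFEB and MCOLN1, since the weakest calls in the list rested on 5 fragments. No paired analysis was possible because there was 1 ChIP library and 1 input library and no test was made. With 1 library of each kind, no replicate could be left out.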

Other observations

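E-boxes were also counted in the promoters of wider lists of lysosomal genes. These lists overlap the group described above and include LAMP1 and MCOLN1, so the counts are not separate from those above. No GRCh37 start sites were used for these genes, so their MYC peaks were not counted. Of 112 symbols, 78 had a RefSeq window, and CACGTG was found in 20 of these (25.6%), beside 10.9% of all coding genes. The share was 4 of 7 for Ragulator and the Rag GTPases, 3 of 9 for lysosomal proteases, 5 of 14 for lysosomal membrane proteins, 4 of 14 for other hydrolases and 3 of 12 for the v-ATPase, the pump that acidifies the lysosome. It was 1 of 18 for autophagy genes and 0 of 4 for TFEB and its relatives. The full CLEAR palindrome, CACGTG with GT before and AC after, was found in 5 of the 78 genes, beside 0.638% of all coding genes. The 5 were RRAGB, a Rag GTPase, MCOLN1, already described above, the hydrolases GAA and GALNS, and ATP6V1G1, a v-ATPase subunit. CLEAR was itself defined from promoters of lysosomal genes, so these counts are no independent evidence for it. They are a description of sequence and were not tested.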
